A study of Mus musculus with 6 samples.

Results

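Neuropeptide precursor genes encode the proteins from which sensory, spinal and sympathetic neurons cut their signaling peptides. The 10 genes chosen by name from the table of counts were Calca, Calcb, Tac1, Penk, Pdyn, Sst, Npy, Gal, Adcyap1 and Nppb, of 54532 genes in all. They were compared between 3 control mice and 3 Dok6 mutant mice, with 1 library of sciatic nerve RNA per mouse, taken at postnatal day 3. Controls were wild-type littermates and mutants were homozygous Dok6-/- mice, made by deleting a floxed exon 3 with EIIA-cre, a transgene that acts in the early embryo, so that the loss was not limited to 1 cell type. Both genotypes were on the C57BL/6 background and males and females were not distinguished. In the account below, a gene rose or fell where edgeR's quasi-likelihood test gave an adjusted p under 0.05 over the 17099 genes with enough counts to be tested.

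Neuropeptides are made as long precursors, cut at pairs of basic residues by prohormone convertases, packed into dense-core vesicles and released to act on G protein-coupled receptors. In the pain pathway, peptidergic sensory neurons of the dorsal root ganglia (DRG) release calcitonin gene-related peptide (CGRP) and substance P in the dorsal horn of the spinal cord, where interneurons make enkephalin, dynorphin, somatostatin and neuropeptide Y. The sciatic nerve itself holds the axons of sensory, motor and sympathetic neurons, while the cell bodies, where most messenger RNA of such genes resides, lie outside it.

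Penk and Pdyn, the opioid precursors that fell, carry repeats of the codons for Tyr-Gly-Gly-Phe, the start of every enkephalin and dynorphin. A search of the longest coding sequence of each gene found 7 such runs in Penk, of which 6 were followed by Met and 1 by Leu, and 3 in Pdyn, all followed by Leu. Each of these runs came directly after 2 codons for Lys or Arg, the pair at which the precursor is cut. The other 8 precursors held none, and of 22527 protein-coding genes searched in any reading frame, 180 held at least 1 run and 4 held 3 or more, namely Penk, Pdyn, Krtap19-2 and Krtap19-4. The stretch below, from a coding exon of Penk in GENCODE M21 on the GRCm38 build (chr4:4134067-4134354, minus strand, 288 bases), holds 4 of its runs, in capitals.
Penk: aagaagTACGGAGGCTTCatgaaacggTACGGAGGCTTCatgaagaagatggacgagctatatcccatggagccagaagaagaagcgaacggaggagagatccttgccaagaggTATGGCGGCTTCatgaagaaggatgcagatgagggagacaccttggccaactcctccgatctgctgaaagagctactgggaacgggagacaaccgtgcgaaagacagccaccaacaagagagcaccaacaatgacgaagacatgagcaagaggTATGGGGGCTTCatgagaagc

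Calca rose while its neighbor and paralog Calcb did not pass the test, so the similarity of their reads matters. Both encode a CGRP. The most similar stretches of 120 bases within a coding exon of each differ at 5 bases (95.83% identity). They were chosen for the fewest differences and do not mark the ends of the peptide. The differing bases are in capitals below for Calca (chr7:114632480-114632599, minus strand) and Calcb (chr7:114721975-114722094, plus strand). The longest identical run within these stretches was 59 bases. The best match of the full transcripts spanned 449 bases at 81.51% identity, and none reached 95% identity over at least 200 bases. Reads from the identical run could still be counted for either gene, and the aligner's treatment of them is not given in the sources used here.
Calca: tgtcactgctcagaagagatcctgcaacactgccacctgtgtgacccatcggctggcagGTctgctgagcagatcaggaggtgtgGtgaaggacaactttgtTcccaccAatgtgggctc
Calcb: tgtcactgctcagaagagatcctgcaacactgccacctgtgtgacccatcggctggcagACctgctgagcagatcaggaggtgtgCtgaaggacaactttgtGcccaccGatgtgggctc

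The total counts of the 6 libraries lay between 17699904 and 18678170, of which the 10 precursors together took 7248 to 9076. Levels are given as CPM, the counts of a gene relative to those of its whole library, scaled by the trimmed mean of M-values (TMM), and 3 counts, taken as the smallest detectable level, corresponded to 0.156 to 0.172 CPM. Dok6 itself, the gene targeted, was at 17.8, 11.9 and 17.5 CPM in control mice 1, 2 and 3 and at 7.26, 5.78 and 7.15 CPM in mutant mice 1, 2 and 3, and it fell with a log2 fold change of -1.23 (SE 0.20, adjusted p = 0.0118, edgeR). The counts cover the whole gene and not the deleted exon alone.

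The labelled tissue was checked against marker genes, because the precursors belong to cells with bodies outside a nerve. Markers of spinal and central neurons summed to 1598, 1840 and 1749 CPM in the controls and to 1374, 1275 and 1510 CPM in the mutants, with 13 of 14 at 1 CPM or more in every library, the highest being Slc17a6, Zic1 and Slc6a5. Of 13 Schwann cell markers, 7 rose and none fell, beside 8.62% and 6.01% of all genes tested, and for 9 of the 13 every mutant lay above every control, beside 19.6%. All 13 log2 fold changes were above 0, with a median of 2.65. Summed over 12 of them, since 1 is not reported here, the markers were at 159, 113 and 205 CPM in the controls and at 320, 1745 and 245 CPM in the mutants. Every mutant lay above every control in this sum, and mutant mouse 2, which was also the highest in Calca, stood far above the rest. Sox10, a transcription factor of Schwann cells and oligodendrocytes, overlapped between the groups, at 42.2 to 108 CPM in the controls and 49.4 to 144 CPM in the mutants. Central neuron markers, of cells with bodies outside the labelled sciatic nerve, were abundant in every library. Markers of DRG sensory neurons summed to 591, 504 and 503 CPM in the controls and to 724, 1534 and 1492 CPM in the mutants, and 11 of the 14 tested rose and none fell. Skeletal muscle markers summed to 16.6 to 24.8 CPM in the controls and to 113 to 618 CPM in the mutants, with 7 of 8 tested higher. Astrocyte and oligodendrocyte markers summed to 2022 to 3028 CPM in the controls and to 1840 to 4048 CPM in the mutants, and the 2 groups overlapped. In such bulk tissue, fewer cells of a type and less RNA per cell cannot be told apart.

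Of the 10 precursors, 9 had enough counts to be tested. Calca rose in Dok6 mutant mice, and Penk and Pdyn fell, whereas Calcb, Tac1, Sst, Npy, Gal and Adcyap1 did not pass the test. Among all genes tested, 8.62% rose and 6.01% fell, and counts of 1 and 2 among 9 genes are too small to set these precursors apart from that background. No precursor passed an absolute log2 fold change above 2 as well, which 1.19% of all genes tested did. The median log2 fold change of the 9 precursors was -0.22, with 3 above 0 and 6 below 0, and that of all genes tested was 0.01. Every mutant library lay above every control library for 1 of the 9, against 19.6% of all genes tested, and below for 3 of the 9, against 18.7%.

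**Figure D1:**
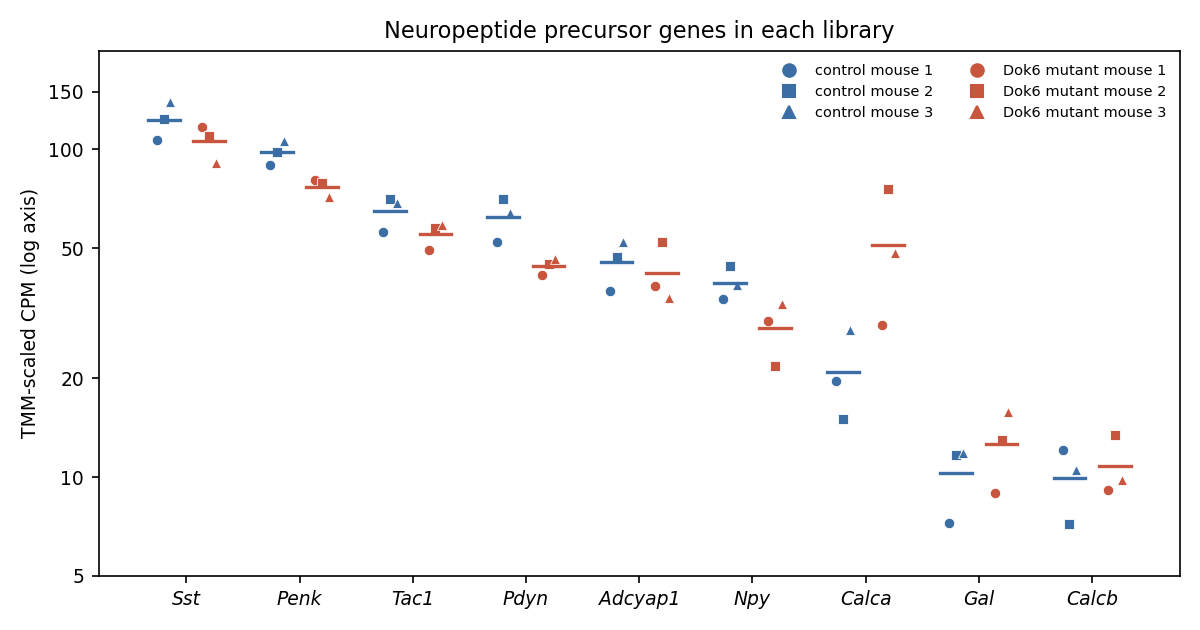
Level of 9 neuropeptide precursor genes in each library, in CPM on a log axis, for 3 control and 3 Dok6 mutant mice, each point 1 mouse and each horizontal line a group mean. Nppb, at 10 counts or fewer in every library, is left out, and Calca is the precursor whose mutants, at 29.0 to 75.6 CPM, lie above the controls, at 15.0 to 28.1 CPM.

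Calca encodes calcitonin and alpha-CGRP, the vasodilator peptide of nociceptive sensory neurons, by alternative splicing, and 7 annotated transcripts at chr7:114631478-114636357 were counted as 1 gene. It was at 19.6, 15.0 and 28.1 CPM in control mice 1, 2 and 3 and at 29.0, 75.6 and 48.2 CPM in mutant mice 1, 2 and 3. The groups did not overlap, but mutant mouse 1 lay just above control mouse 3, and mutant mouse 2 was the highest. The mean rose from 20.9 ± 6.62 CPM to 51.0 ± 23.4 CPM (SD, n = 3 each), with a log2 fold change of 1.28 (SE 0.34, adjusted p = 0.0396, edgeR quasi-likelihood test). The call was lost without control mouse 1 (adjusted p = 0.103), control mouse 2 (0.149), mutant mouse 2 (0.103) or mutant mouse 3 (0.0526) and with limma voom (0.0579), the log2 fold change staying between 0.89 and 1.57 when 1 mouse was left out.

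Calcb encodes beta-CGRP, which acts on the same receptor, and lies at chr7:114718643-114723365. It was at 12.1, 7.17 and 10.5 CPM in the controls and at 9.13, 13.4 and 9.80 CPM in the mutants. The groups overlapped, and the log2 fold change was 0.12 (SE 0.23, adjusted p = 0.751, edgeR). Within each library the ratio of Calca to Calcb was 1.62, 2.10 and 2.67 in the controls and 3.18, 5.63 and 4.92 in the mutants. Every mutant ratio was above every control ratio, which in an exact permutation test gave p = 0.1, the smallest that 3 mice against 3 allow, among 5 ratios computed after the data were seen.

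Tac1 encodes substance P and neurokinin A, the other peptides of nociceptive sensory neurons, which are also made by dorsal horn neurons. It was at 55.8, 70.7 and 68.4 CPM in the controls and at 49.3, 57.5 and 58.8 CPM in the mutants. Control mouse 1 lay within the range of the mutants, and the log2 fold change was -0.24 (SE 0.12, adjusted p = 0.197, edgeR). Adcyap1 encodes PACAP, a peptide of sensory and autonomic neurons, and was at 36.8, 46.8 and 52.2 CPM in the controls and at 38.3, 52.0 and 35.2 CPM in the mutants. Its groups overlapped over nearly their whole range, with a log2 fold change of -0.11 (SE 0.17, adjusted p = 0.684, edgeR).

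Calca was set beside the DRG markers because both are genes of sensory neurons. This ratio was not computed for the other precursors of such neurons. Of these, Calcb (log2 fold change 0.12), Tac1 (-0.24), Sst (-0.22), Adcyap1 (-0.11) and Gal (0.29) did not pass the test, and Nppb was not tested. As a percentage of the summed DRG marker level, Calca was at 3.32%, 2.98% and 5.58% in the controls and at 4.01%, 4.93% and 3.23% in the mutants. These groups overlapped (log2 ratio of means 0.04, exact permutation test p = 0.9, among the same 5 ratios). The most abundant members, Prph, which is also a motor neuron marker, and Ret, made up 59.2% to 66.7% of the sum in the controls and 44.9% to 51.2% in the mutants, and the log2 fold changes of Ret (0.29), Pou4f1 (0.21) and Prrxl1 (0.07) did not pass the test. The median log2 fold change of the 14 markers was 3.76, against 1.28 for Calca. Scn10a, the sodium channel Nav1.8 of nociceptors, was at 3.10, 2.92 and 1.20 CPM in the controls and at 46.0, 167 and 133 CPM in the mutants, and its log2 fold change was 5.58 (SE 0.54, adjusted p = 0.00433, edgeR). Mutant mice 2 and 3 were the highest in Calca, in Scn10a and in the marker sum. Beyond these values, the part of sensory neuron RNA in the Calca result was not tested.

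**Figure D2:**
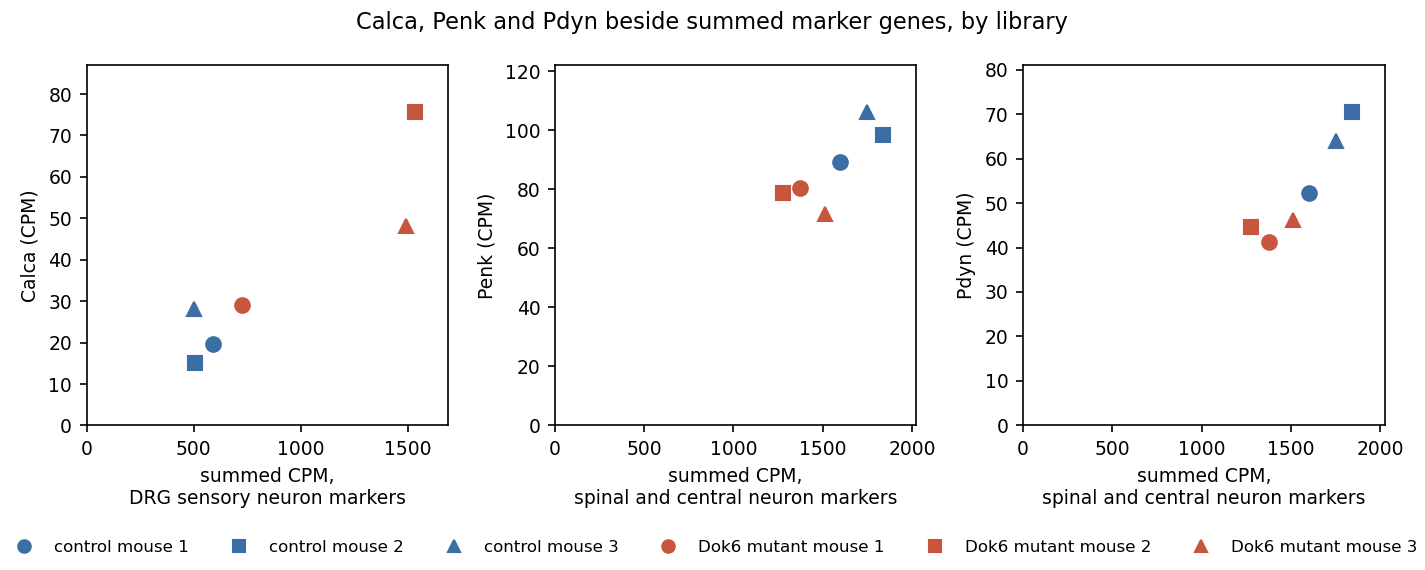
CPM of Calca against the summed CPM of DRG sensory neuron markers, and of Penk and Pdyn against the summed CPM of spinal and central neuron markers, each point 1 mouse and shapes giving the mouse number. Mutant mice 2 and 3 are highest in both Calca and the DRG marker sum (1534 and 1492 CPM), and the 3 mutant mice are lowest in Penk, Pdyn and the spinal and central marker sum.

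Penk encodes the enkephalins, whose 7 Tyr-Gly-Gly-Phe runs are partly printed above, and lies at chr4:4133531-4138819. It was at 89.4, 98.5 and 106 CPM in the controls and at 80.5, 78.8 and 71.7 CPM in the mutants. Every mutant lay below every control. The mean fell from 98.0 ± 8.35 CPM to 77.0 ± 4.63 CPM (SD, n = 3 each), a log2 fold change of -0.35 (SE 0.09, adjusted p = 0.0382, edgeR). The call was lost without control mouse 2 (adjusted p = 0.134), control mouse 3 (0.0968), mutant mouse 1 (0.0821), mutant mouse 2 (0.0895) or mutant mouse 3 (0.0663), with a log2 fold change of -0.41 to -0.28 over the 6 fits without 1 mouse. On the opposite strand, A830012C17Rik shares exonic bases with Penk and held 5, 4, 6, 1, 0 and 8 counts, against 1354 to 1855 for Penk, and although the study's methods name a stranded kit, the labels do not and whether strand was used in counting is not given in the sources used here.

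Pdyn encodes the dynorphins, the opioid peptides that act mainly on the kappa receptor, and lies at chr2:129686565-129699844. It was at 52.3, 70.4 and 63.9 CPM in the controls and at 41.3, 44.6 and 46.3 CPM in the mutants. The groups did not overlap, and the controls were the more spread. The mean fell from 62.2 ± 9.19 CPM to 44.1 ± 2.53 CPM (SD, n = 3 each), a log2 fold change of -0.50 (SE 0.12, adjusted p = 0.0305, edgeR). The call was lost without control mouse 2 (adjusted p = 0.122), control mouse 3 (0.0694), mutant mouse 1 (0.0994) or mutant mouse 2 (0.0797), with a log2 fold change of -0.61 to -0.40 over the 6 fits without 1 mouse. Without control mouse 2, 56 genes rose and 12 fell over all genes tested, against 1474 and 1028 with all 6 mice.

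Penk and Pdyn are made by neurons of the dorsal horn, so they were set beside the markers of spinal and central neurons. As a percentage of that sum, Penk was at 5.59%, 5.35% and 6.06% in the controls and at 5.86%, 6.18% and 4.75% in the mutants (log2 ratio of means -0.02, exact permutation test p = 0.9). Pdyn was at 3.27%, 3.83% and 3.66% in the controls and at 3.00%, 3.50% and 3.06% in the mutants (log2 ratio of means -0.17, exact permutation test p = 0.2). Both overlapped between the groups when taken relative to this sum, which itself was lower in every mutant. Of the 14 markers in it, 13 had a log2 fold change below 0, with a median of -0.29. Pax2 and Slc32a1, of inhibitory interneurons, fell and Slc17a7 rose, beside 6.01% and 8.62% of all genes tested. Beyond these values, the part of spinal neuron RNA in the results for Penk and Pdyn was not tested.

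Sst encodes somatostatin, an inhibitory peptide of dorsal horn interneurons and of some sensory neurons, and had the highest CPM of the 10 genes. It was at 107, 124 and 139 CPM in the controls and at 117, 110 and 91.1 CPM in the mutants, with a log2 fold change of -0.22 (SE 0.12, adjusted p = 0.252, edgeR). Mutant mice 1 and 2 lay within the range of the controls. Npy encodes neuropeptide Y, of dorsal horn inhibitory and sympathetic neurons, and was at 35.0, 43.9 and 38.5 CPM in the controls and at 29.9, 21.8 and 33.8 CPM in the mutants. Every mutant lay below every control, but the log2 fold change of -0.46 (SE 0.16) did not pass the test (adjusted p = 0.0912, edgeR). It passed with DESeq2 (adjusted p = 0.0432), with no filter on low counts (edgeR, adjusted p = 0.0485) and without mutant mouse 3 (edgeR, adjusted p = 0.0445). As a percentage of the spinal and central marker sum, Npy was at 2.19%, 2.39% and 2.20% in the controls and at 2.17%, 1.71% and 2.24% in the mutants (exact permutation test p = 0.4). Markers of sympathetic neurons summed to between 15.7 and 23.9 CPM in the 6 libraries.

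Gal encodes galanin, which rises in sensory neurons after nerve injury. It was at 7.23, 11.7 and 11.8 CPM in the controls and at 8.92, 13.0 and 15.8 CPM in the mutants. The groups overlapped, with a log2 fold change of 0.29 (SE 0.26, adjusted p = 0.452, edgeR). Nppb encodes B-type natriuretic peptide, a transmitter of pruriceptive sensory neurons, and was not tested for want of counts, which were 10, 6 and 6 in the controls and 0, 3 and 5 in the mutants. The summed 22 and 8 counts gave a ratio of mutant to control of 0.337 after library scaling, with a 95% exact interval of 0.13 to 0.786 that covers counting error only. The 0 counts in mutant mouse 1 allow a level of up to 0.156 CPM.

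**Figure D3:**
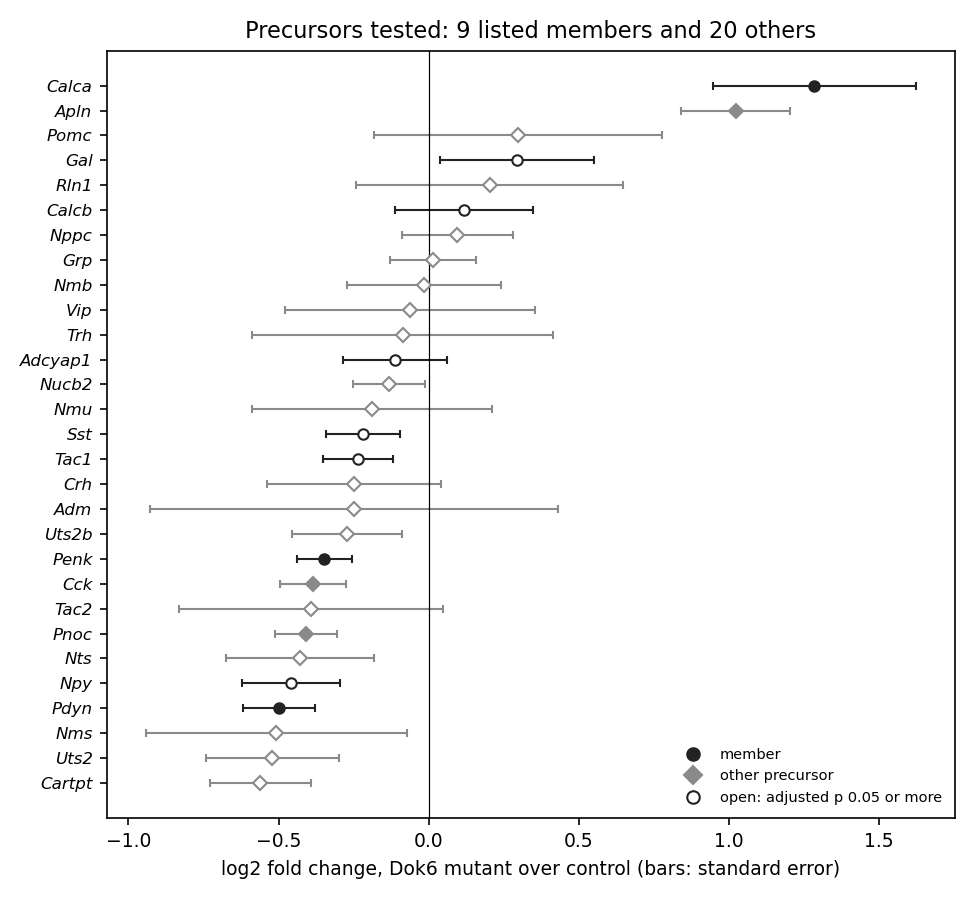
Log2 fold change of Dok6 mutant over control for the precursors tested, for the chosen 9 (circles) and the 20 others (diamonds), each point 1 gene with its standard error and filled where the adjusted p was under 0.05. Calca at 1.28 and Apln at 1.02 lie to the right, while the other chosen precursors lie between -0.50 and 0.29.

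To compare levels between genes, CPM were divided by the gene length in the table, which equals the summed exon length of GENCODE M21 for 98.01% of the identifiers in it but is shorter for Gal and Adcyap1. In the controls the order of levels per kb was Sst (171 CPM per kb), Npy (69.2), Penk (54.7 to 64.9 in the 3 mice), Adcyap1 (21.7), Pdyn (21.5), Tac1 (19.1), Gal (14.4), Calca (12.4), Calcb (7.86) and Nppb (0.538). The ranges of neighbors in that order overlapped except between Sst and Npy, between Penk and Adcyap1 and between Calcb and Nppb. In the mutants Calca stood 4th by its mean of 30.3 ± 13.9 CPM per kb (SD, n = 3), after being 8th in the controls. In mutant mouse 1, Calca (17.2 CPM per kb) lay below Adcyap1 (18.4), and the mutant ranges of Calca and Adcyap1 overlapped. With the annotated length in place of that in the table, Adcyap1 was at 11.98 CPM per kb in the controls and stood 8th, behind Calca, which stood 7th, and Calca was again 4th in the mutants.

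Within the summed level per kb of the 10 precursors, the share of Calca was 3.12 ± 0.845% in the controls and 8.50 ± 3.59% in the mutants (SD, n = 3 each). The share of Penk was 15.1 ± 0.485% and 13.4 ± 0.653%, and that of Pdyn was 5.41 ± 0.483% and 4.33 ± 0.342%, in the same order. For these 3 genes and Nppb the groups did not overlap, and the exact permutation test gave p = 0.1, the smallest value possible, over 10 shares tested. Sst held the greatest share, 43.0 ± 1.22% in the controls and 41.7 ± 4.72% in the mutants (exact permutation test p = 0.7). Npy held 17.4 ± 1.69% and 14.4 ± 3.67% (exact permutation test p = 0.2). The shares sum to a whole in each library, so that a higher share of 1 gene lowers the others.

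The genes whose pattern over the 6 libraries was most like that of a precursor were sought among 15676 genes with a mean of 1 CPM or more, by the root mean square (RMS) difference of centered log2 CPM. For Calca they were Igtp (RMS difference 0.185 on the log2 scale), Fmn1 (0.192) and Lgi4 (0.194), all less close than any gene found for the opioid precursors. For Penk they were Naa20 (0.0141), Cyp46a1 (0.0247) and Esco1 (0.032), and for Pdyn Ube2v2 (0.037), Gm13135 (0.0448) and Lmo3 (0.0461). The search used the same libraries as the comparison of the groups, and the likeness is a description over 6 libraries.

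Among 46 other neuropeptide precursors, 20 could be tested, of which 1 rose and 2 fell, counts too small to set apart from the shares over all genes tested, where 8.62% rose and 6.01% fell. Their median log2 fold change was -0.22. Apln, the precursor of apelin, was at 4.59, 4.13 and 5.66 CPM in the controls and at 10.8, 9.49 and 8.90 CPM in the mutants, and rose with a log2 fold change of 1.02 (SE 0.18, adjusted p = 0.0146, edgeR). Pnoc, the precursor of nociceptin, an opioid-related peptide, was at 47.2, 58.0 and 56.7 CPM in the controls and at 41.1, 39.2 and 41.7 CPM in the mutants, and fell with a log2 fold change of -0.41 (SE 0.10, adjusted p = 0.035, edgeR). Cck, the precursor of cholecystokinin, fell by 0.39 on the log2 scale (SE 0.11, adjusted p = 0.049, edgeR). The 2 most abundant that did not pass were Nucb2, the precursor of nesfatin, with a log2 fold change of -0.13 (SE 0.12), and Cartpt, of CART peptide, with -0.56 (SE 0.17, adjusted p = 0.0565, edgeR).

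Of 30 receptors and receptor subunits of these peptides, 27 could be tested, of which 2 rose and 1 fell, near the 8.62% and 6.01% of all genes tested, with a median log2 fold change of 0.26. Sstr4, a somatostatin receptor, was at 1.49, 1.26 and 1.72 CPM in the controls and at 3.37, 5.02 and 3.87 CPM in the mutants, and its log2 fold change was 1.45 (SE 0.26, adjusted p = 0.0152, edgeR). Npr2, the receptor of C-type natriuretic peptide, rose by 0.39 on the log2 scale (SE 0.11, adjusted p = 0.0485, edgeR). Galr2, a galanin receptor, was at 3.96, 3.38 and 4.06 CPM in the controls and at 1.82, 1.31 and 2.12 CPM in the mutants, and fell with a log2 fold change of -1.12 (SE 0.26, adjusted p = 0.027, edgeR). Adcyap1r1, the PACAP receptor, was the most abundant, with a log2 fold change of -0.20 (SE 0.10, adjusted p = 0.202, edgeR), and Ramp1, the subunit that makes the CGRP receptor, came next among those that did not pass, with -0.06 (SE 0.21, adjusted p = 0.863, edgeR).

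Of 13 peptide processing enzymes, all tested, Scg5 fell and none rose, 1 of 13 being near the 6.01% of all genes tested that fell, with a median log2 fold change of -0.09. Scg5 encodes 7B2, the chaperone of prohormone convertase 2, and was at 121, 145 and 163 CPM in the controls and at 109, 102 and 94.4 CPM in the mutants, and its log2 fold change was -0.49 (SE 0.11, adjusted p = 0.0279, edgeR). Cpe, the carboxypeptidase that trims the basic residues left by the cut, and Pcsk1n, an inhibitor of prohormone convertase 1, were the most abundant, with log2 fold changes of -0.09 (SE 0.18, adjusted p = 0.772) and -0.27 (SE 0.09, adjusted p = 0.0656) in edgeR's test.

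Of 14 granins and dense-core vesicle genes, all tested, 4 fell and none rose, beside 6.01% and 8.62% of all genes tested, with a median log2 fold change of -0.20. Scg2 was at 242, 277 and 273 CPM in the controls and at 211, 203 and 202 CPM in the mutants, and its log2 fold change was -0.36 (SE 0.08, adjusted p = 0.025, edgeR). Chgb fell by 0.43, Chga by 0.35 and Scg3 by 0.26 on the log2 scale (adjusted p = 0.0279, 0.0495 and 0.0445, edgeR). These 4 are granins, the proteins that help load peptides into dense-core vesicles. Cadps and Syt4, of vesicle priming and release, were the most abundant that did not pass, with log2 fold changes of -0.10 (SE 0.11) and -0.42 (SE 0.14, adjusted p = 0.0764, edgeR).

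Of 12 peptide degrading enzymes, all tested, none passed edgeR's test, beside 8.62% of all genes tested that rose and 6.01% that fell. At an unadjusted p under 0.05, 4 were higher and 1 lower, beside 3081 and 2656 of all 17099 genes tested. DESeq2 called 1 in each direction, beside 1815 higher and 1530 lower over all genes. The median log2 fold change of the 12 enzymes was 0.05. Prep and Lnpep, the most abundant, had log2 fold changes of -0.11 (SE 0.09) and -0.17 (SE 0.12). The genes of dense-core vesicles and the spinal and central markers were both lower in the mutants by their sums, 2494 to 2771 CPM in the controls against 2199 to 2359 CPM in the mutants for the former, and the part of spinal neuron RNA in these sums was not tested.

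**Figure D4:**
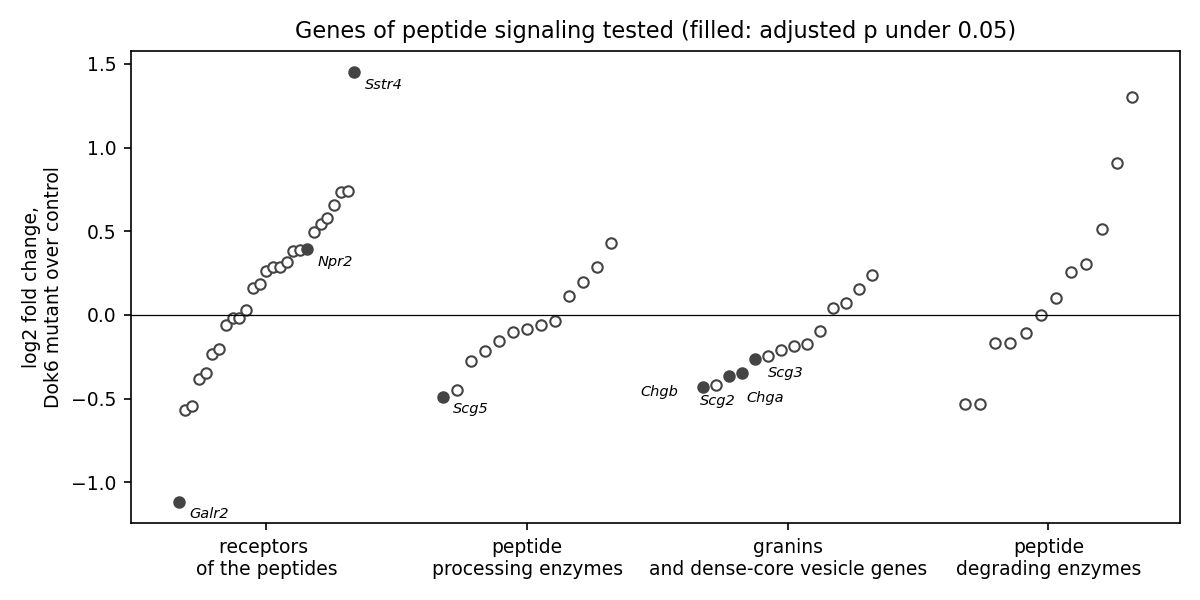
Log2 fold change of Dok6 mutant over control for every tested gene of the receptor, processing, granin and degradation lists, each point 1 gene and filled points those with an adjusted p under 0.05. The 4 filled points among the granins and dense-core vesicle genes lie between -0.43 and -0.26.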

How the data were processed

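One library of sciatic nerve RNA per mouse, from 3 controls and 3 Dok6 mutants aged 3 days, was made with an NEBNext Ultra kit, which the study's methods name as the Directional (stranded) version and the labels do not, and read on an Illumina NovaSeq. The authors deposited raw read counts per gene, without normalization, and gene lengths. The submitters' processing notes name the mm10 build. The aligner, the counter and whether strand was used in counting are not given in the sources used here. No per-sample column was left unused.

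The main test was that of edgeR 4.0.16 (R 4.3.3): filterByExpr by genotype kept 17099 of 54532 genes, scaling was by TMM, and 1 quasi-likelihood fit of all 6 libraries had no block. Benjamini-Hochberg adjustment ran over the whole set of tested genes, and the fold change of 2 on the log2 scale that the study's methods use is given beside the calls. The SE of a log2 fold change comes from the F statistic. A typical gene varied by 16.6% between mice. Total counts ranged from 17699904 to 18678170, and every pair of libraries differed by more than sampling noise. Shares and ratios were tested by the two-sided exact permutation test of scipy 1.17.1, in which 3 mice against 3 allow no p below 0.1.

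The members and lists were chosen with earlier results of these data known. Named were every member, up to 5 called genes and the 2 most abundant that did not pass in each pathway list, the 3 genes most like each called member, and Dok6; single marker genes were named for their role. Alternatives were DESeq2 1.42.0, limma 3.58.1 voom, RLE and upper-quartile scaling, other filters and fold changes, the replicate number as a block and leaving out each mouse; ratios to marker sums, and of Calca to Calcb, and levels and shares by annotated gene length, were chosen after seeing the data. The procedure was tested on simulated data. Gene models and sequences are from GENCODE M21 (GRCm38), and similar transcripts were sought with BLAST 2.17.0. Some items are not reported here.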

Additional observations from a re-analysis of the deposited data

How the results depend on the processing

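Of 117 values of single precursors under the alternatives, 94 kept their direction and side of the threshold, 17 lost a call, 3 gained a call and 3 turned. Only Calca, Penk and Pdyn had a call to lose. They kept it in 2, 1 and 2 of the 6 fits without 1 mouse, in that order, and in 5, 6 and 6 of 7 other settings. The sign of Calcb turned to -0.072 on the log2 scale without control mouse 2 and to -0.069 without mutant mouse 2 (range -0.072 to 0.29 when 1 mouse was left out), and that of Adcyap1 to 0.0054 without control mouse 3 (range -0.30 to 0.0054). The change in share of the summed precursor level turned for Tac1 (0.0294 percentage points without mutant mouse 1, range -0.441 to 0.0294), Sst (0.933 without mutant mouse 3, range -3.76 to 0.933) and Adcyap1 (-0.306 without mutant mouse 2, range -0.306 to 0.573). Leaving out 1 mouse gave 56 to 1671 genes that rose and 12 to 1233 that fell over all genes, 0 to 1 and 0 to 2 among the precursors, 0 to 1 and 0 to 2 among other precursors, 0 to 3 and 0 to 1 among receptors, and, for genes that fell, 0 to 1 among processing enzymes, 0 to 3 among granins and 0 to 1 among degrading enzymes. With the replicate number as a block, 432 genes rose and 130 fell, and 0 among the precursors, other precursors, receptors, processing enzymes and granins (adjusted p = 0.0838 for Calca, 0.104 for Penk and 0.0607 for Pdyn). The deviations of same-numbered mice from their group means correlated at -0.243 to -0.0078, and those of other pairs at -0.068 to 0.221. Centering on the group means ties these values to each other. They therefore cannot decide whether the numbers mark litters or batches. With an absolute log2 fold change above 1, 612 genes rose and 74 fell, with 1 receptor higher and 0 lower calls among precursors, other precursors, processing enzymes and granins, and above 2, 185 rose and 19 fell, with 0 in every list. With voom, 0 precursors rose, 1 other precursor fell, 1 receptor rose and 2 processing enzymes fell. Upper-quartile scaling and a minimum of 10 counts each left 1 other precursor lower, and RLE scaling 1 receptor higher. DESeq2 gave 2 processing enzymes lower and 1 degrading enzyme in each direction, as did no filter for the latter. Over all genes, DESeq2 gave 1815 higher and 1530 lower, and no filter 1884 and 1133. The cause of these shifts was not tested, except that a stricter fold passes fewer genes by construction. Among the precursors, Nppb had too few counts to be tested.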
